A study of Homo sapiens with 52 samples.

Results

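HS578T and SUM159PT, a pair of established human claudin-low breast cancer cell lines, were compared in their non-targeting (NT) controls only. Of the 52 libraries sequenced, 12 belonged to this comparison: the 6 NT control libraries of HS578T and the 6 of SUM159PT, each line with 3 siNT and 3 shNT libraries. The siNT cells had been reverse transfected with 20 nM of a negative control siRNA and lysed at 72 hrs, and the shNT cells carried a lentiviral non-targeting shRNA, were selected with puromycin and were lysed 48 hrs after seeding. Both lines were kept in the same high-glucose medium with fetal bovine serum, to which the siNT transfection added reduced serum medium, and none of the 12 cultures carried a treatment against neuropilin 1 (NRP1), the gene the wider study silenced. Each line stands for 1 tumour, so what differed between them may be particular to these cells, and the 3 shNT libraries of a group came from consecutive passages. The p-values below therefore measure the spread between cultures and passages of these lines. HS578T was derived from a carcinosarcoma and SUM159PT from an anaplastic carcinoma of the breast, and the third line of the series, MDA-MB-231 (6 NT controls), is used here only as a reference for levels.

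Claudin-low tumours are mostly hormone receptor negative, express little of the tight junction claudins and of E-cadherin, and carry many transcripts of mesenchymal cells, which make and anchor to extracellular matrix. Cells of this kind still differ in how much stroma-like matrix they produce, in which keratins and lineage factors they retain, and in whether interferon-stimulated and antigen presentation genes are active without added interferon. Levels below are in TPM, a transcript abundance scaled for gene length and for the size of the library. Differences are log2 fold changes of HS578T minus SUM159PT, so that positive values are higher in HS578T, with modality (siNT or shNT) as covariate and with their standard error (SE). Adjusted p-values are Benjamini-Hochberg values of edgeR's quasi-likelihood test over 19136 genes.

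NRP1 itself was expressed in both lines. It stood at 26.9, 34.7 and 51.5 TPM in HS578T (lowest, median and highest of 6 libraries) and 35.7, 71.4 and 101 TPM in SUM159PT. The ranges overlapped, and the difference was log2 fold change -0.80, SE 0.16, edgeR adjusted p = 0.000471. The claudin-low labels were checked against their markers. CLDN3, ESR1 and PGR were at most 0.11 TPM in all 12 libraries and did not reach the count filter, CDH1 and EPCAM were at most 0.54 TPM, and CLDN4 and CLDN7 were at most 2.34 and 0.89 TPM against medians of 164 and 43.1 TPM in MDA-MB-231. The 3 HS578T shNT libraries had at most 0.57 TPM of CLDN4 and 0.47 TPM of CLDN7, and neither gene was called (0.84 and 1.17 on the log2 scale in siNT, -0.38 and -0.28 in shNT libraries). VIM, an intermediate filament of mesenchymal cells, was abundant in both lines, at 4282, 5334 and 5836 TPM in HS578T and 2304, 3495 and 6093 TPM in SUM159PT (log2 fold change 0.85, SE 0.18, edgeR adjusted p = 0.000949). In the shNT libraries alone the VIM difference was 0.45 and was not called. CD44, a hyaluronan receptor, stood at 934, 1883 and 2578 TPM in HS578T and 628, 748 and 868 TPM in SUM159PT (log2 fold change 1.11, SE 0.14, edgeR adjusted p = 6.54e-06). ERBB2 was lower in HS578T without overlap, at 12.9, 17.6 and 23.3 TPM in HS578T and 26.2, 32.8 and 43 TPM in SUM159PT (log2 fold change -0.56, SE 0.18, edgeR adjusted p = 0.0124). In siNT libraries alone the ERBB2 difference was -0.56 and was not called.

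The 12 libraries held between 30001734 and 62014725 expected read counts (median 43958232.5), and replicates of a group differed by far more than sampling noise. Genes that mark MDA-MB-231 (12 genes with at least 20 CPM in its 6 NT controls and a median of at most 0.5 CPM in the other lines) stood at 0.576% to 1.89% of their MDA-MB-231 level in the HS578T siNT libraries, at 0.0285% to 0.112% in the HS578T shNT libraries and at 0.0675% to 0.243% in SUM159PT. Whether this signal is RNA of MDA-MB-231 or expression by HS578T itself was not tested. A low value in the HS578T siNT libraries may thus hold RNA of a gene abundant in MDA-MB-231. For this reason shNT values are given beside CLDN4, CLDN7, OASL, IFI27, ISG15, IL6 and CD74. Genes that mark SUM159PT reached at most 0.203% of their level in HS578T, and genes that mark HS578T at most 0.0702% in SUM159PT. The fold change moved with the GC content of transcripts, from a median of -0.59 on the log2 scale in the octile of lowest GC to 0.48 in the octile of highest GC. This slope also varied among replicates of 1 group, and results were therefore recomputed with GC-corrected offsets, an alternative chosen after the data were seen.

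Of the genes tested, 11695 (61.1%) differed, with 5483 (28.7%) higher and 6212 (32.5%) lower in HS578T, and with a median log2 fold change of -0.09 over all genes tested. At least 2-fold differences were called for 3657 genes higher (19.1%) and 4168 lower (21.8%), and 2182 and 2312 of these were also called at least 2-fold, in the same direction, in siNT and in shNT libraries separately. All 6 HS578T libraries lay above all 6 SUM159PT libraries in CPM for 3024 genes (15.8%) and below them for 3031 genes (15.8%). With GC-corrected offsets 4959 of the 5483 higher calls and 5143 of the 6212 lower calls were kept and none reversed. On the scale of log2(TPM + 0.1) the median gene stood 0.35 below its edgeR value, a shift to bear in mind for differences of that size. With so many genes called, the counts within each gene list below are to be read against 28.7% higher and 32.5% lower.

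**Figure D1:**
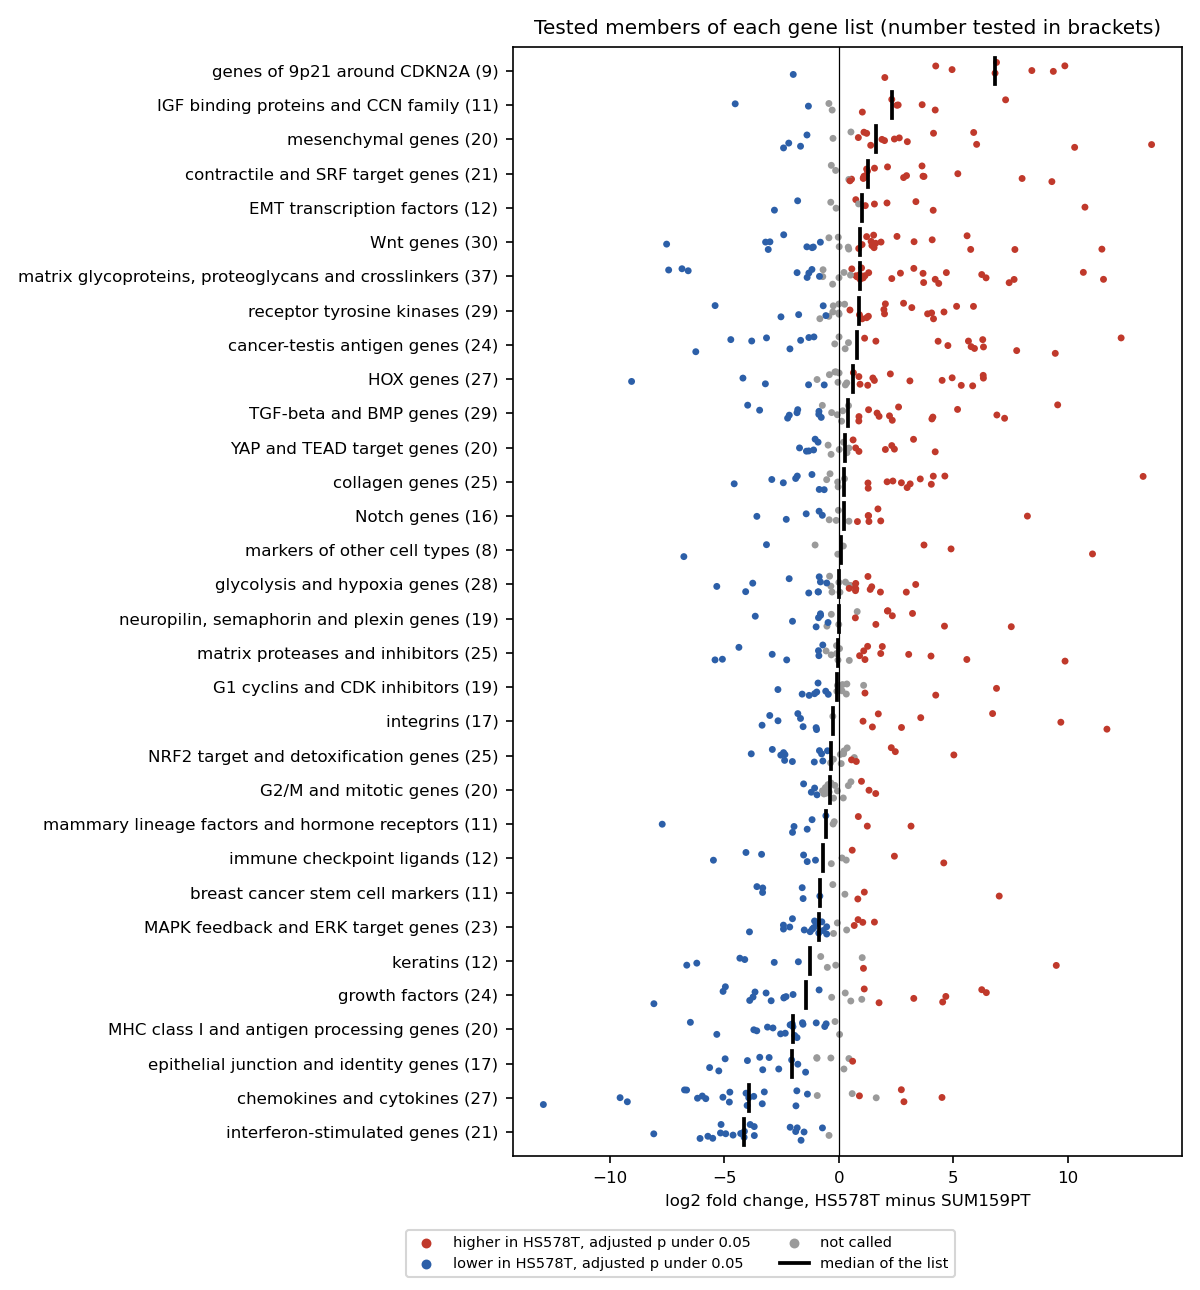
Fitted log2 fold changes (HS578T minus SUM159PT) of the tested members of the gene lists described here, 1 point per gene, coloured by the edgeR call, with a black bar at the median of the list. The genes of 9p21 lie furthest to the right (median 6.83) and the interferon-stimulated genes furthest to the left (median -4.12). Points of genes with 0 to 3 counts in 1 line depend on the prior count of the fit.

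Genes of the mesenchymal program were mostly higher in HS578T. Of the 20 mesenchymal genes tested, 14 were higher and 4 lower (median log2 fold change 1.64). THY1, a glycoprotein of the fibroblast surface, stood at 838, 1032 and 1520 TPM in HS578T and 0.01, 0.06 and 0.33 TPM in SUM159PT. It was abundant in every HS578T library and near 0 in every SUM159PT library (log2 fold change 13.66, SE 0.29, edgeR adjusted p = 1.47e-13). LUM, a small leucine-rich proteoglycan that binds collagen fibrils, stood at 9.71, 27.7 and 190 TPM in HS578T and 0, 0.04 and 0.2 TPM in SUM159PT (log2 fold change 10.30, SE 0.66, edgeR adjusted p = 7.11e-09). Its HS578T values spanned a wide range, with the siNT libraries holding the 2 highest values. DCN, a related proteoglycan, stood at 50.3, 91.2 and 154 TPM in HS578T and 0.97, 1.26 and 6.07 TPM in SUM159PT (log2 fold change 5.89, SE 0.57, edgeR adjusted p = 5.66e-07), and POSTN, a matricellular protein, at 7.86, 34.5 and 137 TPM in HS578T and 0.06, 0.72 and 3.46 TPM in SUM159PT (log2 fold change 6.02, SE 0.70, edgeR adjusted p = 4.16e-06). Neither range overlapped. SPARC, a further matricellular protein, was abundant in both lines and its ranges overlapped (log2 fold change 1.39, SE 0.18, edgeR adjusted p = 1.19e-05), as did those of FN1, the main cell-adhesive glycoprotein of matrix, at 1376, 2416 and 3200 TPM in HS578T and 388, 805 and 2072 TPM in SUM159PT (log2 fold change 1.89, SE 0.25, edgeR adjusted p = 1.24e-05). The 4 lower genes were S100A4, TNC, NNMT and PDPN. PDPN, a mucin-type glycoprotein of lymphatic and migrating cells, stood at 8.62, 31.3 and 100 TPM in HS578T and 71.8, 132 and 162 TPM in SUM159PT (log2 fold change -2.41, SE 0.39, edgeR adjusted p = 7.71e-05), and TNC, an anti-adhesive matrix protein, at 7.16, 14.1 and 21.2 TPM in HS578T and 37.3, 74.7 and 209 TPM in SUM159PT (log2 fold change -2.19, SE 0.38, edgeR adjusted p = 0.000155).

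Collagen genes moved in both directions. Of 25 collagen genes tested, 12 were higher and 8 lower in HS578T (median 0.25). COL1A2, which encodes the second chain of type I collagen, stood at 579, 1417 and 2599 TPM in HS578T and 0.03, 0.2 and 0.35 TPM in SUM159PT. The partner chain COL1A1 stood at 573, 1005 and 1917 TPM in HS578T and 39.9, 89.1 and 124 TPM in SUM159PT. SUM159PT thus held COL1A1 transcripts with next to none of COL1A2, while both were abundant in HS578T (log2 fold change 13.29, SE 0.30, edgeR adjusted p = 2.75e-13 for COL1A2 and log2 fold change 4.13, SE 0.33, edgeR adjusted p = 7.06e-08 for COL1A1). COL3A1 (3.56), COL6A1 (2.36) and the basement membrane chain COL4A1 (2.98) were also higher. The type IV chains COL4A5 and COL4A6, encoded next to each other on the X chromosome, went the other way. COL4A6 stood at 0.18, 0.5 and 0.87 TPM in HS578T and 8.86, 10.7 and 16.1 TPM in SUM159PT (log2 fold change -4.57, SE 0.32, edgeR adjusted p = 1.56e-08) and COL4A5 at 0.54, 1.46 and 2.53 TPM in HS578T and 8.26, 14.7 and 23.1 TPM in SUM159PT (log2 fold change -2.92, SE 0.32, edgeR adjusted p = 1.74e-06).

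Among matrix glycoproteins, proteoglycans and crosslinkers, 23 of 37 genes tested were higher and 8 lower (median 0.93). LOX, which crosslinks collagen and elastin, stood at 44.2, 77.8 and 97 TPM in HS578T and 0.28, 0.875 and 4.58 TPM in SUM159PT (log2 fold change 6.43, SE 0.52, edgeR adjusted p = 8.04e-08), and its relative LOXL3 at 51.3, 101 and 186 TPM in HS578T and 1.11, 1.74 and 3.88 TPM in SUM159PT (log2 fold change 6.24, SE 0.44, edgeR adjusted p = 1.72e-08). BGN, a proteoglycan of connective tissue, stood at 301, 639 and 745 TPM in HS578T and 13.3, 23.9 and 79.5 TPM in SUM159PT (log2 fold change 4.37, SE 0.50, edgeR adjusted p = 3.19e-06). The microfibril gene MFAP5 stood at 5.95, 9.46 and 21.2 TPM in HS578T and had 0 counts in all 6 SUM159PT libraries, which puts it at least 743-fold higher in HS578T (3 counts taken as the limit over the 6 libraries). MFAP2, also a microfibril component, stood at 141, 245 and 314 TPM in HS578T and 0.54, 1.99 and 3.27 TPM in SUM159PT (log2 fold change 7.44, SE 0.43, edgeR adjusted p = 2.37e-09). Lower in HS578T were LAMA3, a laminin chain of epithelial basement membrane, at 0.01, 0.095 and 0.15 TPM in HS578T and 6.43, 9.3 and 11.2 TPM in SUM159PT (log2 fold change -7.43, SE 0.39, edgeR adjusted p = 7.77e-10), and SPP1, which encodes osteopontin, at 0.14, 0.195 and 0.34 TPM in HS578T and 9.76, 25.6 and 72.2 TPM in SUM159PT (log2 fold change -6.58, SE 0.50, edgeR adjusted p = 3.67e-08). Matrix proteases and inhibitors were split, with 10 of 25 higher and 8 lower (median -0.03). ADAMTS2, which removes the N-propeptide of fibrillar procollagens, was higher (log2 fold change 4.03, SE 0.33, edgeR adjusted p = 8.52e-08). The collagenase MMP1, at 0.31, 0.515 and 3.08 TPM in HS578T and 7.94, 21.9 and 49.8 TPM in SUM159PT, and the metalloprotease inhibitor TIMP1, at 266, 377 and 397 TPM in HS578T and 1960, 2065 and 2782 TPM in SUM159PT, were lower (log2 fold change -4.36, SE 0.59, edgeR adjusted p = 1.54e-05 and log2 fold change -2.27, SE 0.15, edgeR adjusted p = 1.13e-08).

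Among 12 transcription factors of epithelial-mesenchymal transition tested, 7 were higher and 2 lower (median 1.01). The paired-type homeobox gene PRRX2 stood at 59.9, 64.1 and 72.8 TPM in HS578T and 0, 0.04 and 0.09 TPM in SUM159PT (log2 fold change 10.75, SE 0.35, edgeR adjusted p = 6.58e-12). SNAI2, which encodes SLUG, stood at 39.8, 52.7 and 58 TPM in HS578T and 3.47, 6.39 and 9.46 TPM in SUM159PT (log2 fold change 3.37, SE 0.21, edgeR adjusted p = 4.47e-09), whereas SNAI1, which encodes SNAIL, stood at 0.8, 3.35 and 4.62 TPM in HS578T and 19, 22.4 and 30.1 TPM in SUM159PT (log2 fold change -2.81, SE 0.35, edgeR adjusted p = 5.77e-06). The SNAIL family members were thus reversed between the lines without overlap in either. ZEB1 stood just outside the threshold (log2 fold change 0.87, SE 0.36, edgeR adjusted p = 0.0505) and passed it under other scalings, filters and models, with GC-corrected offsets (1.38) among them, and without HS578T siNT replicate 3, HS578T shNT replicate 2, SUM159PT siNT replicate 1 or SUM159PT shNT replicate 3 (1.03 to 1.11). ZEB2 was not called (-0.35, and 0.14 with GC-corrected offsets).

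Genes of the actin cytoskeleton that serum response factor (SRF) controls in smooth muscle and myofibroblasts leaned to HS578T. Of 21 contractile and SRF target genes tested, 18 were higher and none passed the test as lower (median 1.26, or 1.59 with GC-corrected offsets, under which ACTN1 and FLNA were called lower). TAGLN, an actin-binding protein of smooth muscle, stood at 79.9, 136 and 410 TPM in HS578T and 1.5, 15.2 and 122 TPM in SUM159PT (log2 fold change 3.63, SE 0.58, edgeR adjusted p = 8.21e-05). Its ranges overlapped, with SUM159PT shNT replicate 3 at 122 TPM. MYL9, a regulatory myosin light chain, stood at 332, 550 and 1091 TPM in HS578T and 63, 104 and 126 TPM in SUM159PT (log2 fold change 2.96, SE 0.25, edgeR adjusted p = 9.34e-08), and the filamin gene FLNC at 28.7, 51.2 and 60.8 TPM in HS578T and 0.07, 0.225 and 0.88 TPM in SUM159PT (log2 fold change 8.01, SE 0.54, edgeR adjusted p = 1.14e-08). The difference of FLNC was larger in siNT (9.38) than in shNT libraries (6.90, edgeR adjusted p = 0.0344 for the difference between them). MYOCD, which encodes the SRF partner myocardin, was low in HS578T at 0.14, 0.55 and 2.25 TPM and had 1 count in all over the 6 SUM159PT libraries, a ratio of 995 with a 95% counting interval of 178 to 39360.

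The promoters of these genes were searched for the CArG box, the SRF recognition element, on both strands. Known SRF targets were listed by choice, so the share with a box describes the list and not the difference between the lines. Promoters were RefSeq sequences on GRCh38.p14, from 250 bases before to 50 bases after the start of a gene, and 17 of the 21 tested genes had one. A CArG box stood in 5 of the 17 (29.4%), against 1.29% of all 27305 promoters of the table and 1.08% of the promoters of protein-coding genes tested. The 5 were ACTG2, CNN2, MYLK, TPM4 and FLNA. Those of ACTG2, smooth muscle gamma actin (log2 fold change 2.83), and MYLK, myosin light chain kinase (1.07), of which the first was not called in shNT (2.01) and the second not in siNT libraries alone (0.78), are printed to show the element, in capitals. ACTG2 lies on the plus strand at chr2:73892758-73893057, with boxes that begin 110 and 73 bases before the start, and MYLK on the minus strand at chr3:123620499-123620798, with 1 box 94 bases before the start.
ACTG2: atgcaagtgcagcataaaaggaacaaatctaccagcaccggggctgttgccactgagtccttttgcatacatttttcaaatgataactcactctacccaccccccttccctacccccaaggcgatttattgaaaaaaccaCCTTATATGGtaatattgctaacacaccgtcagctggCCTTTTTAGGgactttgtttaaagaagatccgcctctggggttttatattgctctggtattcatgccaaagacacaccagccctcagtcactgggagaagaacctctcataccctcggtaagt
MYLK: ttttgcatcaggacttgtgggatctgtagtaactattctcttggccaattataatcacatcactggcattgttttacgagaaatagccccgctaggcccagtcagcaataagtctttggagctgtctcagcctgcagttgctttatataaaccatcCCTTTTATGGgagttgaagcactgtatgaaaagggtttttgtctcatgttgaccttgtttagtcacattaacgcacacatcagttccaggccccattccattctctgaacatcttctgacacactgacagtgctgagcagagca

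Keratins and lineage factors differed in both directions. Of 12 keratin genes tested, 2 were higher and 6 lower in HS578T (median -1.28). KRT14, the basal cell partner of KRT5, stood at 119, 318 and 984 TPM in HS578T and 0.15, 0.265 and 3.73 TPM in SUM159PT (log2 fold change 9.50, SE 0.76, edgeR adjusted p = 8.64e-08). KRT7, a keratin of simple ductal epithelium, stood at 8.36, 18.2 and 33.8 TPM in HS578T and 554, 809 and 1294 TPM in SUM159PT (log2 fold change -6.20, SE 0.33, edgeR adjusted p = 8.70e-10). KRT17 followed at 0.18, 0.265 and 0.75 TPM in HS578T and 18.7, 35.3 and 84 TPM in SUM159PT (log2 fold change -6.64, SE 0.49, edgeR adjusted p = 2.74e-08), and KRT8 at 43.7, 108 and 143 TPM in HS578T and 424, 860 and 1087 TPM in SUM159PT (log2 fold change -2.82, SE 0.35, edgeR adjusted p = 7.08e-06). KRT14, a neighbour of KRT17 in the type I keratin cluster, was therefore high in the line where KRT17 was near 0 and the reverse. KRT18, the usual partner of KRT8, was not called over both modalities and is described with the siNT and shNT libraries below. Of 17 epithelial junction and identity genes tested, 1 was higher and 11 were lower (median -2.06), and 9 more did not reach the count filter. JUP, which encodes plakoglobin, stood at 6.55, 11.5 and 17.4 TPM in HS578T and 60.9, 177 and 242 TPM in SUM159PT (log2 fold change -3.45, SE 0.31, edgeR adjusted p = 2.41e-07), and P-cadherin (CDH3) at 0.04, 0.285 and 0.86 TPM in HS578T and 1.63, 3.89 and 9.04 TPM in SUM159PT (log2 fold change -3.99, SE 0.52, edgeR adjusted p = 9.23e-06). The mammary lineage list had 3 of 11 genes higher and 6 lower (median -0.56). TP63, the master regulator of basal epithelium, stood at 0.02, 0.125 and 0.19 TPM in HS578T and 11.2, 25 and 31.4 TPM in SUM159PT (log2 fold change -7.71, SE 0.41, edgeR adjusted p = 8.71e-10). SUM159PT therefore carried TP63 with little KRT14, and HS578T KRT14 with little TP63.

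Integrins, the receptors that bind matrix, were evenly split, with 8 of 17 higher and 8 lower (median -0.26, or 0.21 with GC-corrected offsets). ITGA11, a collagen receptor chain of fibroblasts, stood at 46.1, 66.1 and 117 TPM in HS578T and 5.11, 7.61 and 13.1 TPM in SUM159PT (log2 fold change 3.58, SE 0.21, edgeR adjusted p = 2.72e-09). ITGA4, a chain of fibronectin and VCAM1 receptors, stood at 3.8, 6.01 and 8.71 TPM in HS578T against 1 count in all in SUM159PT. The fibronectin receptor chain ITGA5 was higher with overlapping ranges (log2 fold change 1.47, SE 0.17, edgeR adjusted p = 3.44e-06). Lower were the laminin receptor chains ITGB4, at 0.5, 4.34 and 7.57 TPM in HS578T and 11.5, 37.4 and 88.4 TPM in SUM159PT (log2 fold change -3.01, SE 0.50, edgeR adjusted p = 0.000102), and ITGA6, at 6.15, 7.7 and 15.3 TPM in HS578T and 13, 39.6 and 50.1 TPM in SUM159PT (log2 fold change -1.56, SE 0.22, edgeR adjusted p = 1.85e-05), and the collagen receptor chain ITGA2 (log2 fold change -3.35, SE 0.32, edgeR adjusted p = 4.08e-07).

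Interferon-stimulated genes were the list with the lowest median. Of 21 tested, 20 were lower in HS578T and none was higher (median -4.12, or -3.66 with GC-corrected offsets). The median was -4.46 in siNT and -3.17 in shNT libraries alone. OASL, a member of the oligoadenylate synthetase family, stood at 0.31, 0.835 and 1.62 TPM in HS578T and 101, 337 and 662 TPM in SUM159PT (log2 fold change -8.08, SE 0.55, edgeR adjusted p = 1.23e-08). IFI27 stood at 0.68, 3.67 and 6.63 TPM in HS578T and 101, 179 and 292 TPM in SUM159PT (log2 fold change -5.14, SE 0.43, edgeR adjusted p = 1.10e-07), and IFI44 at 0.58, 1.17 and 1.84 TPM in HS578T and 33.5, 50.9 and 193 TPM in SUM159PT (log2 fold change -5.50, SE 0.36, edgeR adjusted p = 7.11e-09). These are transcripts that most cells make in quantity only after interferon. IFIT1, which binds foreign RNA ends, stood at 1, 1.32 and 1.6 TPM in HS578T and 9.2, 16.4 and 49.2 TPM in SUM159PT (log2 fold change -3.69, SE 0.38, edgeR adjusted p = 8.56e-07), and IFIT3, its partner, at 1.42, 2.65 and 3.8 TPM in HS578T and 18.9, 47 and 128 TPM in SUM159PT (log2 fold change -4.12, SE 0.43, edgeR adjusted p = 1.08e-06). Every SUM159PT library lay above every HS578T library for these 5 genes. The ubiquitin-like modifier ISG15 stood at 50.8, 56.7 and 81.2 TPM in HS578T and 165, 281 and 517 TPM in SUM159PT (log2 fold change -1.88, SE 0.30, edgeR adjusted p = 7.67e-05), and here the difference was -2.75 in siNT and -0.97 in shNT libraries (edgeR adjusted p = 0.0386 for the difference between them). Within SUM159PT the 3 siNT libraries held the highest values of IFI27, IFI44 and ISG15. MDA-MB-231 also expressed these genes (median 135 TPM of IFI27 and 32.1 TPM of OASL). In shNT libraries alone OASL differed by -7.38 and IFI27 by -4.58. In the HS578T shNT libraries the marker genes of MDA-MB-231 reached at most 0.112% of their MDA-MB-231 level.

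The interferon-stimulated response element (ISRE), bound by interferon regulatory factors, was sought in their promoters as its core GAAANNGAAA on both strands, with overlapping matches allowed. Of 15 tested genes with a promoter in the table, 12 held a match (80.0%), against 3.65% of all 27305 promoters and 2.90% of promoters of protein-coding genes tested. OAS1, RSAD2 and RIGI had no match in the window. Known interferon-stimulated genes were listed by choice, so this share describes the list and not the difference between the lines. Promoters of 3 genes that were lower in HS578T are printed with the matches in capitals, on the plus strand of GRCh38.p14. IFIT1 (chr10:89392373-89392672) has matches that begin 116 and 103 bases before the start, IFI27 (chr14:94110486-94110785) 108 and 95 bases before it, and ISG15 (chr1:1013247-1013546) 113 and 107 bases before it, the last pair sharing bases.
IFIT1: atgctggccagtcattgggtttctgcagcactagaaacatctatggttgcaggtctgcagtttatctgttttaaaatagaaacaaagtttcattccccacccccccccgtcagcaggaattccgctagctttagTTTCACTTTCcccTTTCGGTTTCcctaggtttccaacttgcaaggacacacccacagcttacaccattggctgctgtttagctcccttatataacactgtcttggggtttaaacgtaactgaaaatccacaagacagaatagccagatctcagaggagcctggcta
IFI27: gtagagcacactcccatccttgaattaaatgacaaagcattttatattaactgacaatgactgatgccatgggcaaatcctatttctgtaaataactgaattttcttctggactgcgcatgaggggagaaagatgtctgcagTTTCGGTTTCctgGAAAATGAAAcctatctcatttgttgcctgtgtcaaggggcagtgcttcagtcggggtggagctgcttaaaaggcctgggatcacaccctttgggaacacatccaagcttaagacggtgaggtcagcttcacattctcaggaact
ISG15: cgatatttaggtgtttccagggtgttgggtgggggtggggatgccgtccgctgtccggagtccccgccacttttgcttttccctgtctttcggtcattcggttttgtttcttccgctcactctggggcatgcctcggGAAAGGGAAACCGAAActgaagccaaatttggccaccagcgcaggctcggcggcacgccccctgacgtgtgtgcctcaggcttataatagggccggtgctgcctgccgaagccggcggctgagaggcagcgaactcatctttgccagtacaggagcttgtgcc

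Antigen presentation genes followed the same direction. Of 20 tested genes of MHC class I and antigen processing, 18 were lower in HS578T and none was higher (median -2.02). HLA-B, a classical class I heavy chain, stood at 11.4, 44.6 and 71.4 TPM in HS578T and 332, 518 and 1596 TPM in SUM159PT (log2 fold change -3.71, SE 0.33, edgeR adjusted p = 2.12e-07). The HLA genes are alike and vary between people, so that counts among them can be split by the alleles of each line. B2M, the invariant light chain, is a single gene and stood at 270, 425 and 860 TPM in HS578T and 1447, 2983 and 6947 TPM in SUM159PT (log2 fold change -2.34, SE 0.18, edgeR adjusted p = 5.78e-08). HLA-F, a non-classical gene, was near 0 in HS578T, at 0.16, 0.635 and 1.29 TPM in HS578T and 26.5, 45.2 and 196 TPM in SUM159PT (log2 fold change -6.48, SE 0.55, edgeR adjusted p = 1.12e-07). The peptide transporter TAP1 (-2.12) and the immunoproteasome subunit PSMB9 (-2.54) were lower as well, while TAP2 (0.03) and ERAP2 (-0.16) were not called. CIITA, which drives MHC class II, was low in both lines (log2 fold change -3.11, SE 0.38, edgeR adjusted p = 4.78e-06). CD74, the class II invariant chain, was lower too (-5.33, and -6.92 in shNT libraries alone), with a median of 425 TPM in MDA-MB-231.

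Secreted signals of inflammation were lower in HS578T in the main. Of 27 chemokine and cytokine genes tested, 20 were lower and 4 higher (median -3.93). CXCL10, a ligand of the T cell receptor CXCR3, stood at 0, 0 and 0.11 TPM in HS578T and 0.7, 11.7 and 59.5 TPM in SUM159PT (log2 fold change -9.55, SE 0.75, edgeR adjusted p = 4.98e-08). CXCL11, a further CXCR3 ligand, had 0 counts in all 6 HS578T libraries and 0.88, 6.69 and 77.3 TPM in SUM159PT, and was at least 1857-fold lower in HS578T. CCL5 stood at 0.06, 0.195 and 1.43 TPM in HS578T and 13.2, 40.6 and 178 TPM in SUM159PT (log2 fold change -6.64, SE 0.96, edgeR adjusted p = 3.33e-05). IL6 stood at 4.11, 6.01 and 8.92 TPM in HS578T and 30.9, 182 and 1926 TPM in SUM159PT (log2 fold change -4.76, SE 0.83, edgeR adjusted p = 0.000169). Its highest 3 values were the SUM159PT siNT libraries, and the difference was -6.85 in siNT against -2.59 in shNT libraries (edgeR adjusted p = 0.0194 for the difference between them). CXCL8 was called over both modalities (log2 fold change -1.87, SE 0.61, edgeR adjusted p = 0.0162) with overlapping ranges, and the call was lost with GC-corrected offsets (-1.25), in shNT libraries alone (-0.49) and without any 1 HS578T siNT library or SUM159PT shNT replicate 3 (-1.79 to -1.51). Higher in HS578T were IL11, a cytokine of the IL6 family that signals through gp130, at 19.8, 21.9 and 24.9 TPM in HS578T and 0.37, 0.93 and 5.58 TPM in SUM159PT (log2 fold change 4.51, SE 0.54, edgeR adjusted p = 4.29e-06), and the monocyte chemokine CCL2, at 2.07, 3.25 and 6.38 TPM in HS578T and 0.25, 0.665 and 0.95 TPM in SUM159PT (log2 fold change 2.85, SE 0.41, edgeR adjusted p = 2.62e-05), besides CXCL12 and CCL26. Of 12 immune checkpoint ligands tested, 6 were lower and 3 higher (median -0.67), with CD274, which encodes PD-L1, at 0.31, 0.625 and 1.04 TPM in HS578T and 2.69, 4.54 and 8.26 TPM in SUM159PT (log2 fold change -3.37, SE 0.28, edgeR adjusted p = 9.21e-08).

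**Figure D2:**
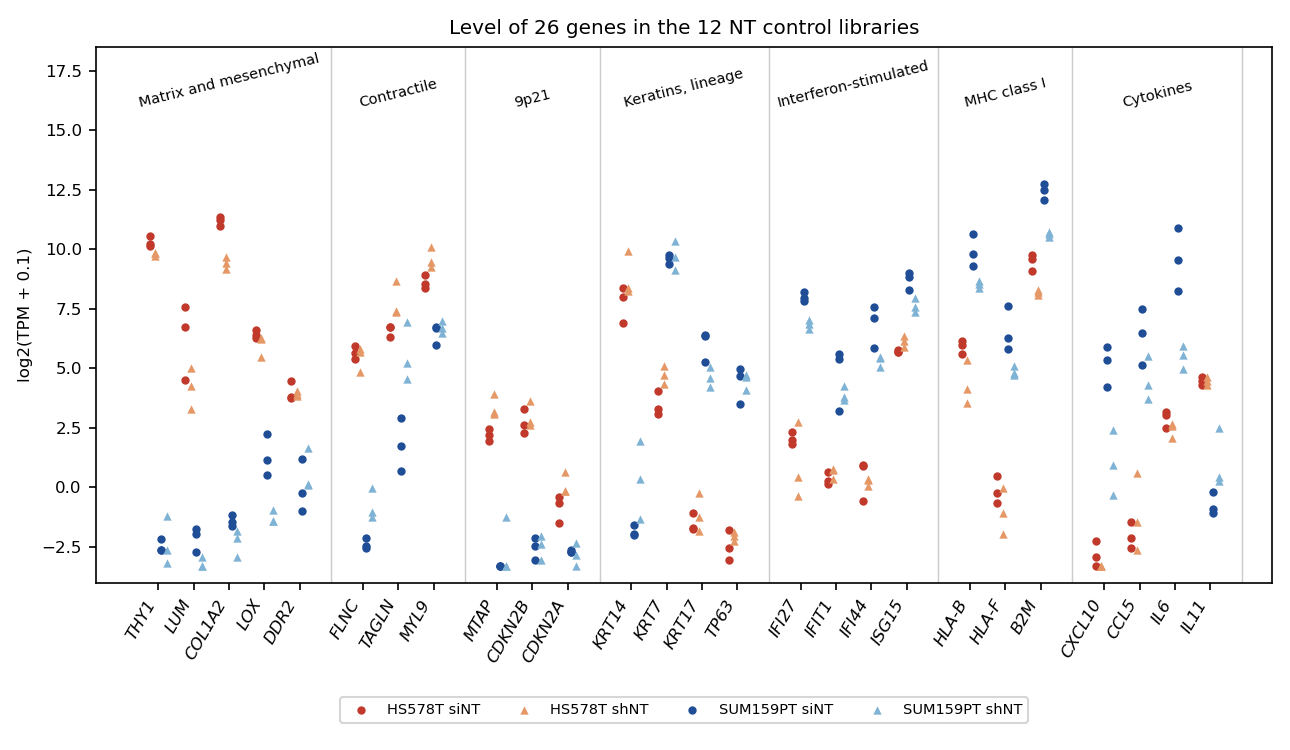
Levels of 26 genes in the 12 NT control libraries as log2(TPM + 0.1), 1 point per library, with circles for siNT and triangles for shNT and with HS578T in red and orange and SUM159PT in dark and light blue. Matrix, contractile, 9p21, KRT14 and IL11 points are higher in HS578T, with overlap between the lines for TAGLN, and KRT7, KRT17, TP63, interferon-stimulated, MHC class I and CXCL10, CCL5 and IL6 points are higher in SUM159PT.

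Genes of 9p21 around CDKN2A were mostly higher in HS578T. This region of chromosome 9 holds the cell cycle inhibitors CDKN2A and CDKN2B and the metabolic enzyme gene MTAP. Of 9 genes tested, 8 were higher in HS578T and 1, ELAVL2, was lower (median 6.83, or 4.95 with the 2 genes that had 0 counts in SUM159PT set at their lower bound). ELAVL2 was at most 0.64 TPM in all 12 libraries, its ranges overlapped, and in shNT libraries alone it was -1.72 and not called. MTAP, which salvages adenine from methylthioadenosine, stood at 3.74, 6.86 and 14.9 TPM in HS578T and had 3 counts in all over the 6 SUM159PT libraries, a ratio of 1016 with a 95% counting interval of 347 to 4930. CDKN2B, which encodes p15, stood at 4.81, 6.32 and 12.2 TPM in HS578T and 0.02, 0.085 and 0.14 TPM in SUM159PT (log2 fold change 6.89, SE 0.39, edgeR adjusted p = 1.95e-09). CDKN2A, which encodes p16 and ARF, was itself low in HS578T, at 0.25, 0.725 and 1.48 TPM in HS578T and 0, 0.05 and 0.1 TPM in SUM159PT (log2 fold change 4.23, SE 0.55, edgeR adjusted p = 9.24e-06). The antisense RNA CDKN2B-AS1 had 0 counts in SUM159PT and 0.75, 1.22 and 2.43 TPM in HS578T. Toward the telomere the higher level continued through KLHL9 (2.01) and FOCAD (4.95) to MLLT3, a subunit of the super elongation complex, at 3.26, 5.39 and 15.1 TPM in HS578T and 0.01, 0.01 and 0.07 TPM in SUM159PT (log2 fold change 8.43, SE 0.41, edgeR adjusted p = 3.67e-10). MLLT3 to CDKN2B (chr9:20341669-22009305 on GRCh38) formed 1 run of 7 neighbouring genes that were each at least 2-fold higher. MDA-MB-231 resembled SUM159PT in having a median of 0 TPM of MTAP, CDKN2A and CDKN2B but not in MLLT3, at 8.65 TPM. DNA copy number was not measured in these files, so a loss of DNA and a lack of transcription cannot be told apart.

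Of 19 G1 cyclins and CDK inhibitors, 3 were higher and 8 lower (median -0.06). The 3 were CDKN2A and CDKN2B, counted with 9p21 above, and CDKN2D, and the cyclin gene CCND2 (-2.66) was the lowest. Of 20 G2/M and mitotic genes, 3 were higher, 4 lower and 13 not called (median -0.38). With GC-corrected offsets 3 were higher and 1 lower (median 0.03). MKI67 stood at 4.78, 6.21 and 17.3 TPM in HS578T and 4.21, 26.6 and 52.4 TPM in SUM159PT (log2 fold change -1.20, SE 0.33, edgeR adjusted p = 0.00525), whereas AURKB, the kinase of the chromosomal passenger complex, was higher in HS578T (log2 fold change 1.61, SE 0.24, edgeR adjusted p = 3.93e-05). The ranges of both genes overlapped, and MKI67 was not called in siNT libraries alone (-0.99).

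Transcripts that follow ERK activity leaned to SUM159PT. Of 23 MAPK feedback and ERK target genes, 16 were lower in HS578T and 4 higher (median -0.87). DUSP6, the phosphatase that switches ERK off, stood at 2.41, 4.49 and 6.66 TPM in HS578T and 14.6, 22.9 and 58.1 TPM in SUM159PT (log2 fold change -2.42, SE 0.34, edgeR adjusted p = 2.01e-05). EGR1, an immediate early factor, stood at 1.13, 1.8 and 5.58 TPM in HS578T and 6.05, 48.5 and 77 TPM in SUM159PT (log2 fold change -3.90, SE 0.65, edgeR adjusted p = 0.000122), and MYC at 14.9, 22 and 25.3 TPM in HS578T and 71.2, 139 and 238 TPM in SUM159PT (log2 fold change -2.42, SE 0.28, edgeR adjusted p = 3.43e-06). FOSL1, an AP-1 subunit, was higher in HS578T with overlapping ranges (log2 fold change 1.56, SE 0.37, edgeR adjusted p = 0.00195) and was not called in shNT libraries alone (1.37). Growth factors were split, 13 of 24 lower and 7 higher (median -1.43, or -1.02 in siNT and -0.36 in shNT libraries alone). Among the EGFR ligands, EREG stood at 0, 0.02 and 0.14 TPM in HS578T and 5.43, 10.2 and 26.3 TPM in SUM159PT (log2 fold change -8.07, SE 0.69, edgeR adjusted p = 1.26e-07) and TGFA at 0, 0.06 and 0.27 TPM in HS578T and 1.78, 2.69 and 3.75 TPM in SUM159PT (log2 fold change -4.95, SE 0.46, edgeR adjusted p = 3.24e-07), and HGF, the ligand of MET, was lower as well (log2 fold change -5.05, SE 0.59, edgeR adjusted p = 3.66e-06). FGF5, at 2.9, 5.77 and 16.7 TPM in HS578T and 0.09, 0.345 and 0.96 TPM in SUM159PT (log2 fold change 4.54, SE 0.35, edgeR adjusted p = 5.10e-08), and the neurotrophin BDNF (3.27) were higher in HS578T.

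Receptor tyrosine kinases leaned the other way from the growth factors, 16 of 29 being higher and 5 lower in HS578T (median 0.90). AXL, the GAS6 receptor, stood at 206, 269 and 305 TPM in HS578T and 39.3, 79.7 and 134 TPM in SUM159PT (log2 fold change 2.04, SE 0.20, edgeR adjusted p = 4.42e-07). DDR2 and DDR1, a pair of collagen receptors, were reversed. DDR2 stood at 13.6, 14.6 and 22.2 TPM in HS578T and 0.4, 0.98 and 3.03 TPM in SUM159PT (log2 fold change 4.14, SE 0.36, edgeR adjusted p = 1.58e-07) and DDR1 at 14.3, 16.1 and 24.3 TPM in HS578T and 32.4, 87.7 and 126 TPM in SUM159PT (log2 fold change -1.75, SE 0.22, edgeR adjusted p = 7.77e-06). PDGFRB was higher (log2 fold change 2.00, SE 0.26, edgeR adjusted p = 9.45e-06). The insulin receptor INSR was near 0 in HS578T, at 0, 0.08 and 0.6 TPM in HS578T and 1.98, 2.46 and 3.08 TPM in SUM159PT (log2 fold change -5.40, SE 0.51, edgeR adjusted p = 3.43e-07), and IGF1R stood at 0.68, 2.15 and 2.78 TPM in HS578T and 4.03, 14.5 and 17.6 TPM in SUM159PT (log2 fold change -2.52, SE 0.17, edgeR adjusted p = 1.35e-08). Of 11 IGF binding protein and CCN genes, 7 were higher and 2 lower (median 2.31). IGFBP3, which sequesters IGF, stood at 125, 176 and 490 TPM in HS578T and 0.81, 1.31 and 6.3 TPM in SUM159PT (log2 fold change 7.29, SE 0.70, edgeR adjusted p = 5.90e-07), and CCN2, a matricellular target of TGF-beta and YAP, at 139, 210 and 370 TPM in HS578T and 7.68, 15.9 and 24.9 TPM in SUM159PT (log2 fold change 4.21, SE 0.35, edgeR adjusted p = 9.70e-08). IGFBP2 was lower (log2 fold change -4.52, SE 0.52, edgeR adjusted p = 3.10e-06). EGFR (0.01), MET (-0.26) and FGFR1 (-0.24) were not called. FGFR1 was called lower in shNT libraries alone (-0.51) and without HS578T siNT replicate 3 (-0.38).

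Of 29 TGF-beta and BMP genes, 14 were higher and 9 lower (median 0.42). INHBA, the subunit of activin A, stood at 7.11, 11.2 and 15.6 TPM in HS578T and 0, 0.06 and 0.21 TPM in SUM159PT (log2 fold change 7.24, SE 0.52, edgeR adjusted p = 2.20e-08), and LTBP1, which tethers latent TGF-beta to matrix, at 31.1, 49.8 and 68.4 TPM in HS578T and 1.57, 1.82 and 2.88 TPM in SUM159PT (log2 fold change 5.19, SE 0.23, edgeR adjusted p = 1.50e-10). The type II receptor TGFBR2 stood at 14.8, 16.9 and 25.2 TPM in HS578T and 71.3, 95.3 and 192 TPM in SUM159PT (log2 fold change -2.16, SE 0.21, edgeR adjusted p = 5.59e-07), lower in HS578T in every library. Of 30 Wnt genes, 16 were higher and 9 lower (median 0.94). WNT5B, a ligand of the non-canonical branch, stood at 17.8, 44.7 and 61.5 TPM in HS578T and 0.72, 1.26 and 2.39 TPM in SUM159PT (log2 fold change 5.60, SE 0.40, edgeR adjusted p = 2.17e-08), and SFRP2, a secreted Wnt binding protein, at 11.8, 22 and 30.9 TPM in HS578T and 0, 0.085 and 0.46 TPM in SUM159PT (log2 fold change 7.69, SE 0.58, edgeR adjusted p = 3.55e-08). Lower were WNT6 (log2 fold change -7.52, SE 0.81, edgeR adjusted p = 1.53e-06), RNF43, which removes Frizzled receptors from the surface (log2 fold change -3.08, SE 0.30, edgeR adjusted p = 6.08e-07), and the antagonist DKK1, at 1.07, 3.87 and 22.7 TPM in HS578T and 3.48, 59.3 and 303 TPM in SUM159PT (log2 fold change -3.20, SE 0.67, edgeR adjusted p = 0.000781). Notch genes were split, 7 of 16 higher and 5 lower (median 0.21, or -0.07 with GC-corrected offsets), with the target HEY2 at 2.41, 2.92 and 5.69 TPM in HS578T and 0, 0.01 and 0.03 TPM in SUM159PT (log2 fold change 8.24, SE 0.48, edgeR adjusted p = 2.31e-09). Of 20 YAP and TEAD targets, 8 were higher and 6 lower (median 0.28, or 0.02 with GC-corrected offsets). Genes of the neuropilin, semaphorin and plexin families were also split, 8 of 19 higher and 7 lower (median -0.00055, or 0.25 with GC-corrected offsets). SEMA3A, a ligand of NRP1, stood at 0.35, 0.685 and 1.11 TPM in HS578T and 3.65, 7.42 and 15.6 TPM in SUM159PT (log2 fold change -3.65, SE 0.34, edgeR adjusted p = 3.64e-07). Its co-receptor gene PLXNA4 was higher in HS578T (log2 fold change 4.62, SE 0.39, edgeR adjusted p = 1.07e-07), as was PLXND1 (log2 fold change 2.15, SE 0.24, edgeR adjusted p = 2.50e-06).

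Both lines expressed genes normally restricted to the germ line, some shared and some near 0 in 1 line. Of 24 cancer-testis antigen genes tested, 12 were higher and 8 lower in HS578T (median 0.78). CTAG2 stood at 217, 233 and 312 TPM in HS578T and 0.28, 0.455 and 0.77 TPM in SUM159PT (log2 fold change 9.45, SE 0.24, edgeR adjusted p = 1.11e-12), PRAME at 43.1, 54.7 and 70 TPM in HS578T and 0, 0.01 and 0.12 TPM in SUM159PT (log2 fold change 12.33, SE 0.40, edgeR adjusted p = 6.58e-12) and MAGEA1 at 15.4, 21.2 and 34.2 TPM in HS578T and 0.2, 0.58 and 1.16 TPM in SUM159PT (log2 fold change 5.78, SE 0.27, edgeR adjusted p = 2.55e-10). Among those higher in SUM159PT were MAGEC2, at 2.21, 3.92 and 8.79 TPM in HS578T and 115, 164 and 170 TPM in SUM159PT (log2 fold change -4.71, SE 0.26, edgeR adjusted p = 1.21e-09), and PAGE5, at 5.98, 19.7 and 24.7 TPM in HS578T and 148, 202 and 295 TPM in SUM159PT (log2 fold change -3.16, SE 0.26, edgeR adjusted p = 9.53e-08). MAGEA6 was present in both, at 24.9, 30.3 and 35.7 TPM in HS578T and 77, 129 and 190 TPM in SUM159PT (log2 fold change -1.67, SE 0.16, edgeR adjusted p = 3.36e-07). Members of the GAGE, CTAG and MAGEA families are near-identical copies, so reads may be divided among them by the estimation and single members are uncertain. HOX genes, which keep the memory of position along the body axis, also differed. Of 27 tested, 14 were higher and 5 lower (median 0.64). HOXB6 stood at 2.27, 3.17 and 3.99 TPM in HS578T and 0.03, 0.055 and 0.07 TPM in SUM159PT (log2 fold change 6.31, SE 0.29, edgeR adjusted p = 1.90e-10) and HOXA9 at 5.4, 8.5 and 11.5 TPM in HS578T and 0.63, 1.46 and 1.89 TPM in SUM159PT (log2 fold change 3.11, SE 0.23, edgeR adjusted p = 3.28e-08), and HOXB2, HOXB3, HOXB5, HOXB9 and HOXB13 were higher too, with HOXB7 lower. HOXC13 stood at 0.24, 0.515 and 0.92 TPM in HS578T and 6.1, 6.34 and 7.99 TPM in SUM159PT (log2 fold change -3.21, SE 0.27, edgeR adjusted p = 9.15e-08). HOXD8 had 0 counts in HS578T and 1.04, 1.24 and 2.4 TPM in SUM159PT, at least 130-fold lower in HS578T.

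Detoxification genes under NRF2 control were lower in HS578T for 12 of 25 tested and higher for 5 (median -0.36). The aldo-keto reductase AKR1C2 stood at 9.75, 21.6 and 39.1 TPM in HS578T and 253, 422 and 644 TPM in SUM159PT (log2 fold change -3.82, SE 0.33, edgeR adjusted p = 1.22e-07), and the neighbouring AKR1C3 at 12.2, 45 and 53.5 TPM in HS578T and 216, 400 and 459 TPM in SUM159PT (log2 fold change -2.90, SE 0.31, edgeR adjusted p = 1.23e-06), a family of close copies. Heme oxygenase 1 (HMOX1) stood at 61.9, 79.7 and 118 TPM in HS578T and 385, 586 and 1164 TPM in SUM159PT (log2 fold change -2.53, SE 0.24, edgeR adjusted p = 4.09e-07), and TXNRD1 at 20, 25.7 and 33.9 TPM in HS578T and 44, 144 and 234 TPM in SUM159PT (log2 fold change -2.03, SE 0.22, edgeR adjusted p = 1.43e-06). GSTM3, a glutathione transferase, was higher in HS578T (log2 fold change 5.03, SE 0.48, edgeR adjusted p = 3.86e-07). Of 28 glycolysis and hypoxia genes, 11 were higher and 10 lower (median 0.03). The neuronal-type glucose transporter SLC2A3 stood at 1.66, 2.85 and 4.61 TPM in HS578T and 43, 69.2 and 79.7 TPM in SUM159PT (log2 fold change -4.07, SE 0.25, edgeR adjusted p = 5.06e-09) and the hypoxia-induced hydroxylase EGLN3 at 0.04, 0.205 and 0.87 TPM in HS578T and 5.42, 19.3 and 33.7 TPM in SUM159PT (log2 fold change -5.33, SE 0.58, edgeR adjusted p = 1.66e-06), whereas ADM (3.36) and NDRG1 (2.95), which hypoxia also induces, were higher in HS578T. Of 11 breast cancer stem cell markers, 3 were higher and 6 lower (median -0.83). Of 20 markers of other cell types, 12 did not reach the count filter. Among the 8 tested, CD68, a lysosomal protein of macrophages and other cells, was higher (log2 fold change 4.90, SE 0.33, edgeR adjusted p = 1.08e-08), as were DES and NEFL, and the leukocyte gene PTPRC, at 0, 0.015 and 0.25 TPM in HS578T and 0.47, 3.32 and 4.28 TPM in SUM159PT (log2 fold change -6.76, SE 0.67, edgeR adjusted p = 6.77e-07), and the endothelial gene PECAM1 (log2 fold change -3.16, SE 0.42, edgeR adjusted p = 1.39e-05) were lower in HS578T. CD3E, LYZ, CDH5, MLANA and ALB were at most 0.43 TPM in all 12 libraries.

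Beyond the lists, the largest differences among protein-coding genes with at least 10 TPM in every library of the higher line were described. Higher in HS578T, besides THY1, COL1A2 and PRAME, were NXF2, CCDC190, JPH4, RNF212, DHRS2, STK32B, GPX7, FMR1NB and PASD1. DHRS2, a short-chain dehydrogenase, stood at 304, 608 and 803 TPM in HS578T and 0.1, 0.2 and 0.4 TPM in SUM159PT (log2 fold change 11.85, SE 0.38, edgeR adjusted p = 5.25e-12). RNF212, a factor of meiotic crossing over, stood at 11.9, 17.2 and 20.6 TPM and had 0 counts in SUM159PT, at least 1073-fold higher. NXF2 and FMR1NB are testis genes of the X chromosome. Among those lower in HS578T were S100A9, S100A8, IRX2, TSPAN18, KYNU, SOD3, PRSS3, GCHFR, LCP1, SULF2 and KRT75. IRX2, a homeobox factor, stood at 0, 0.01 and 0.11 TPM in HS578T and 135, 260 and 344 TPM in SUM159PT (log2 fold change -12.76, SE 0.58, edgeR adjusted p = 1.75e-10), and LCP1, the leukocyte plastin, at 0.33, 0.505 and 0.72 TPM in HS578T and 122, 226 and 271 TPM in SUM159PT (log2 fold change -8.53, SE 0.27, edgeR adjusted p = 5.68e-12). S100A9, a subunit of calprotectin, stood at 0, 0 and 0.22 TPM in HS578T and 54.8, 276 and 3885 TPM in SUM159PT (log2 fold change -13.18, SE 1.03, edgeR adjusted p = 7.25e-08). Its levels in SUM159PT spread over a range far wider than those of LCP1. Among the most abundant genes called at least 2-fold, LGALS1, which encodes galectin 1, stood at 10790, 12490 and 16180 TPM in HS578T and 1727, 3722 and 4345 TPM in SUM159PT (log2 fold change 2.34, SE 0.19, edgeR adjusted p = 6.20e-08), and RPL8, a ribosomal protein gene, at 10360, 11720 and 12780 TPM in HS578T and 2959, 3639 and 3769 TPM in SUM159PT (log2 fold change 2.14, SE 0.14, edgeR adjusted p = 7.34e-09). The iron storage gene FTH1 stood at 3045, 4615 and 5816 TPM in HS578T and 9419, 24800 and 70000 TPM in SUM159PT (log2 fold change -2.30, SE 0.35, edgeR adjusted p = 4.42e-05), the aldose reductase AKR1B1 at 501, 565 and 609 TPM in HS578T and 2233, 3955 and 4923 TPM in SUM159PT (log2 fold change -2.35, SE 0.18, edgeR adjusted p = 4.17e-08) and the apolipoprotein APOE at 3, 7.37 and 13.4 TPM in HS578T and 396, 898 and 2570 TPM in SUM159PT (log2 fold change -6.77, SE 0.57, edgeR adjusted p = 1.48e-07), all lower in HS578T.

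Genes detected in 1 line only, with at least 1 TPM in its 6 libraries and at most 0.1 TPM in the 6 of the other, numbered 165 for HS578T and 98 for SUM159PT. The HS578T siNT libraries held MDA-MB-231 marker genes at 0.576% to 1.89% of their level. If this signal is MDA-MB-231 RNA, a SUM159PT gene abundant in MDA-MB-231 can pass 0.1 TPM there and be left out. How far this lowers the 98 and the MDA-MB-231 counts of SUM159PT genes below was not tested. Of the 165 and 98 genes, 90 and 62 were protein-coding. Counts were 0 in all 6 libraries of the other line for 67 of the 165 and 21 of the 98. PRRX2 led the HS578T genes by median TPM, followed by CCDC190, EPDR1 and FMR1NB. TSPAN18, NRN1 and F10 were among those that led in SUM159PT, the last being the gene of coagulation factor X, at 8.18 to 24.3 TPM with 0 counts in HS578T. Their state in the third line differed from gene to gene. MDA-MB-231 held at least 1 TPM in all 6 NT controls of 23 of the 90 HS578T genes, such as EPDR1 (median 36.0 TPM), and a median of at most 0.1 TPM of 54. For the 62 SUM159PT genes these numbers were 15 and 28. Promoters of the HS578T genes held a median of 16 CpG dinucleotides in 300 bases (69 genes with a promoter) and those of the SUM159PT genes 24.5 (42 genes), against 27 for genes with at least 1 TPM in all 12 libraries (7676 genes) and 5 for genes with at most 0.1 TPM in all 12 (3164 genes). The CpG counts are a description, with no test.

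RSEM also estimates which share of a gene's transcripts each isoform makes up. The leading isoform of 14 listed genes was compared by an exact two-sided permutation test over the 400 arrangements of the lines within modality, for which the smallest p is 0.005. For CALD1, which encodes caldesmon, CALD1-202 made up 58.7% ± 12.3 (SD, n = 6) in HS578T and 32.6% ± 8.84 in SUM159PT (exact permutation p = 0.01, adjusted p = 0.0467). Its ranges overlapped, at 41.4% to 70.4% in HS578T and 20.9% to 44.5% in SUM159PT. Another protein-coding isoform, CALD1-203, made up 0% to 0.38% in HS578T and 19.5% to 26.6% in SUM159PT, without overlap. For TPM2, a tropomyosin, TPM2-202 made up 74.6% ± 2.37 (SD, n = 6) in HS578T and 61.8% ± 5.18 in SUM159PT (exact permutation p = 0.005, adjusted p = 0.035), with TPM2-201 at medians of 14.9% and 24.8% and overlapping ranges. For FN1, FN1-213 made up 15% ± 3.13 (SD, n = 6) in HS578T and 20.3% ± 3.83 in SUM159PT (exact permutation p = 0.005, adjusted p = 0.035), a difference of -5.34 percentage points with overlapping ranges. For NRP1, NRP1-206 made up 38.9% ± 6.88 (SD, n = 6) in HS578T and 52.2% ± 6.7 in SUM159PT (exact permutation p = 0.025, adjusted p = 0.084), a difference of -22.0 percentage points in siNT and -4.56 in shNT libraries. The remaining 10 genes did not pass. CD44-207, for example, differed by 1.83 percentage points (exact permutation p = 0.39), less than its SD within each line (5.14 and 4.70, n = 6). Leaving out 1 library leaves fewer arrangements, and without HS578T shNT replicate 1 or 3 or any 1 SUM159PT siNT library none of the 3 genes passed, although every difference kept its sign. Among the 4 most abundant isoforms of each gene, the 42 that did not lead were not tested, and 7 of them did not overlap between the lines, a description made after their values were seen. Besides CALD1-203 they were CD44-201 (6.01% to 13.4% in HS578T and 18.3% to 29.5% in SUM159PT), NRP1-204 (18.7% to 31.5% and 2.86% to 15.8%), TPM1-201 (5.34% to 18.6% and 0.46% to 3.6%), ITGA6-202 (0% to 14% and 18.9% to 32.0%), PKM-204 (2.9% to 5.16% and 1.08% to 2.13%) and TPM2-210 (1.79% to 2.66% and 2.79% to 7.25%). For NRP1 and CD44 the isoform without overlap was thus not the leading one, and it was not tested. No share without overlap was computed over all isoforms. Among all genes tested, 15.8% lay above and 15.8% below without overlap in CPM. Isoform shares rest on reads that several transcripts have in common and are estimates.

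**Figure D3:**
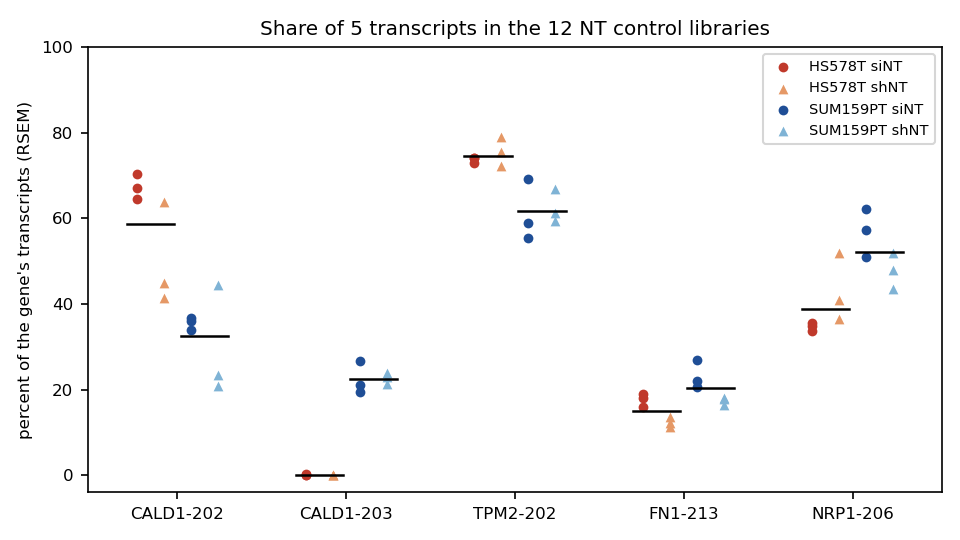
Percent of a gene's transcripts assigned to 5 isoforms in the 12 NT control libraries (circles siNT, triangles shNT), with a black bar at the mean of each line. CALD1-203 lies at 0% to 0.38% in HS578T and at 19.5% to 26.6% in SUM159PT, and the NRP1-206 points overlap.

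Differences were also described by position along the genome, without a test (positions from GENCODE v44 on GRCh38, the build of the files). Among protein-coding genes, chromosome 4 had the lowest median log2 fold change, -1.0 (-0.63 with GC-corrected offsets), with 344 of 506 genes tested lower in HS578T. Chromosomes 13 (-0.76), 15 (-0.74) and 10 (-0.65) followed, and with the correction they stood at -0.42, -0.51 and -0.41. Chromosome 19 had the highest median, 0.65 (0.43 corrected), with 581 of 1057 genes higher, and chromosome 8 stood at 0.45 (0.77 corrected), chromosome 22 at 0.37 (0.21) and chromosome 20 at 0.29 (0.27). These chromosomes kept their sign under the correction, which moved chromosome 5 from -0.13 to 0.18. The files hold no measure of DNA copy number.

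**Figure D4:**
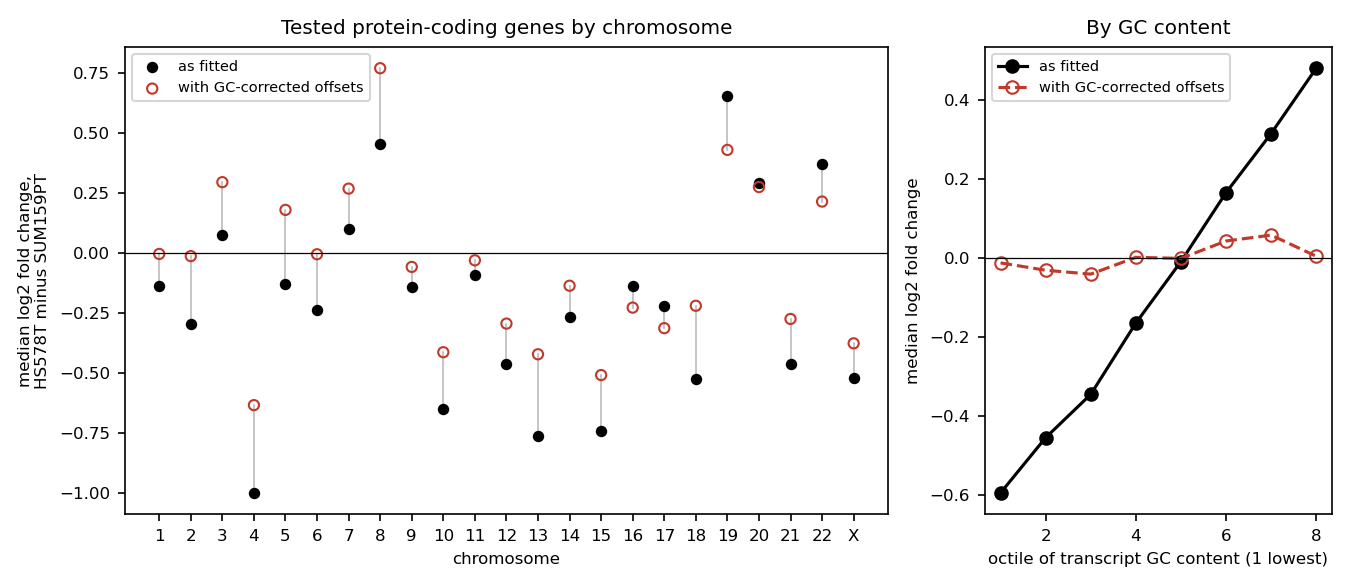
Left, median log2 fold change (HS578T minus SUM159PT) of tested protein-coding genes on each chromosome, as fitted (filled) and with GC-corrected offsets (open). Right, the same medians in 8 bins of transcript GC content, which run from -0.59 to 0.48 as fitted and between -0.04 and 0.06 with the correction.

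Runs of at least 5 neighbouring tested protein-coding genes that were each at least 2-fold different in 1 direction numbered 81, with 25 higher and 56 lower in HS578T and 519 genes in all. No expected number of runs was computed. Among all genes tested, 19.1% were called at least 2-fold higher and 21.8% at least 2-fold lower. With GC-corrected offsets there were 29 runs of higher and 24 of lower genes, so the number of lower runs depended on that choice. The longest run, of 17 lower genes, went from IPO11 to PIK3R1 (chr5:62403972-68301821, median -1.65, or -1.09 with GC-corrected offsets). A run of 12 lower genes from KLHL8 to HERC3 (chr4:87160103-88708450, median -2.19, or -1.76 corrected) and 1 of 11 lower genes from ACSL5 to ABLIM1 (chr10:112374116-114768061, median -2.14, or -1.92 corrected) followed. Among the higher runs, 16 genes from PCDHB15 to PCDHGA10 and 8 from PCDHB7 to PCDHB13 lie in the protocadherin clusters of chromosome 5, whose gamma genes share exons, so that their counts are uncertain. On chromosome 19 a run of 9 zinc finger genes from ZNF506 to ZNF85 (chr19:19785839-20950697) had a median of 5.73 and 5 genes from ZNF43 to ZNF730 a median of 7.80. KRAB zinc finger genes of this kind are repressors that arose by local duplication and often lie in such arrays. On the X chromosome, 8 genes from GAGE12J to PAGE1 were higher (median 5.53), the near-identical GAGE copies among them, as were 5 genes from ARMCX2 to TMSB15A (median 9.85). Lower runs also took in desmosomal cadherins and neighbours from DSG3 to RNF138 (chr18:31447741-32131561, median -4.65, or -4.24 corrected), the type II keratins from KRT80 to KRT75, and the genes from RASSF6 to CXCL2 at the chemokine cluster of chromosome 4.

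The difference between HS578T and SUM159PT itself differed between modalities for 184 genes, 96 with a larger value in shNT (0.502% of those tested) and 88 with a larger value in siNT libraries (0.46%). When 1 library was left out, these numbers ranged from 17 to 257 and from 8 to 182. KRT18 was among them. Its level was 68.7 ± 15.0 TPM (SD, n = 3) in HS578T siNT and 780 ± 243 TPM in HS578T shNT, against 426 ± 79.2 TPM and 671 ± 33.6 TPM in SUM159PT. The line difference was -2.28 in siNT and 0.75 in shNT libraries (interaction 2.97, edgeR adjusted p = 0.00483). HS578T siNT libraries were thus the low ones. PRRX1, the paralogue of PRRX2, was 67.1 ± 18.9 TPM in HS578T siNT and 53.7 ± 12.2 TPM in shNT, against 1.11 ± 0.538 and 11.7 ± 3.48 TPM in SUM159PT, whose shNT libraries were all above its siNT libraries (interaction -3.60, edgeR adjusted p = 0.00177). GALNT15, a glycosyltransferase that starts O-glycans, had the largest interaction of the 10 genes plotted, -5.54 (edgeR adjusted p = 0.000192). It was 13.7 ± 1.2 TPM in HS578T siNT and 1.76 ± 0.401 TPM in shNT, against 0.777 ± 0.263 and 4.84 ± 2.14 TPM in SUM159PT. The siNT and shNT cells differed in transfection, medium, selection, passage and time of harvest together, and these cannot be told apart.

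**Figure D5:**
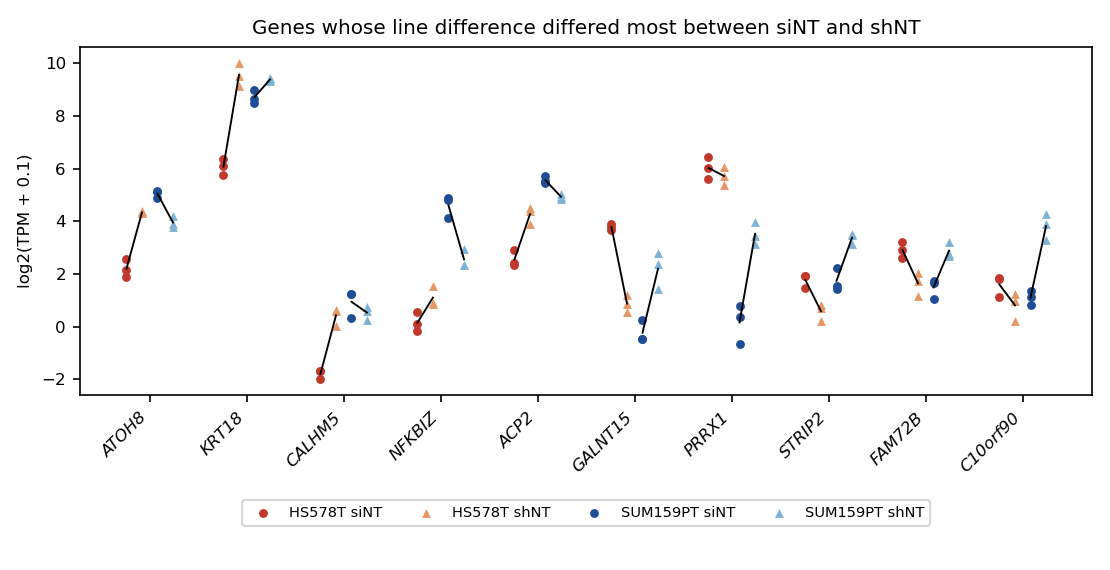
Levels of the 10 genes with the smallest interaction p in each direction (5 and 5) as log2(TPM + 0.1), 1 point per library (circles siNT, triangles shNT, HS578T in red and orange, SUM159PT in blue), with lines joining the modality means of a line. For KRT18 and the other 4 genes on the left the HS578T points are higher in shNT than in siNT, and for PRRX1 the SUM159PT points are.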

How the data were processed

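PolyA-selected, strand-specific RNA-seq libraries of the 12 NT controls were analysed. The authors trimmed reads with Trim Galore (0.6.5), aligned them with STAR (2.7.2b) to GRCh38 and estimated gene and isoform abundance with RSEM (1.3.3). The deposited expected counts are estimates that need not be whole, and they were rounded here. The deposited TPM values and isoform percentages (percent of a gene's transcripts, by the authors' RSEM run) were used as given.

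Groups were taken from the labels. Expected counts were fitted with edgeR 4.0.16 (filterByExpr with its default minimum, TMM factors, robust quasi-likelihood, R 4.3.3) with line and modality as terms, and the interaction in a second fit. Genes passed at a Benjamini-Hochberg adjusted p under 0.05, and the 2-fold rule added an absolute log2 fold change of at least 1. Of 78894 genes, 19136 were tested, and the residual degrees of freedom were 9. DESeq2 1.42.0, other scalings and filters, each modality alone, each library left out, a replicate block, all 18 NT controls in the fit and log2(TPM + 0.1) were alternatives. GC-corrected offsets were added after the data were seen: per library, a smoothing spline with 5 degrees of freedom on the GC content of the longest GENCODE v44 transcript. That release is earlier than the authors'. The code was tested on simulated data.

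Named genes were members of the lists and NRP1, the 12 genes per direction with the largest fold change among protein-coding genes of at least 10 TPM in the 6 libraries of the higher line that passed in both modalities, the 8 most abundant per direction past the 2-fold rule, and the 5 per direction with the smallest interaction p. Of these, those described with values are a selection. XIST and Y-linked genes were not named. A few further genes and 1 gene list are not reported here. The comparison and the lists were chosen with earlier results of these data known. Counting intervals (95%, exact) and limits from 3 counts cover counting error only. Depth was 30001734 to 62014725 expected counts per library.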

Additional observations from a re-analysis of the deposited data

Results flagged for a closer look

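The difference between the lines differed between siNT and shNT libraries, by the interaction test, for 96 genes in the positive and 88 in the negative direction. The 5 genes named in the positive direction were ATOH8 (interaction 3.32 on the log2 scale), CALHM5 (3.32), NFKBIZ (3.21), KRT18 (2.97) and ACP2 (2.50). In the negative direction they were GALNT15 (-5.54), PRRX1 (-3.60), C10orf90 (-3.49), STRIP2 (-2.79) and FAM72B (-2.64). NFKBIZ, an inducible regulator of NF-kappaB target genes, was higher in the siNT than in the shNT libraries of SUM159PT (means of 24.9 and 5.90 TPM). In HS578T it was low in both but went the other way (1.04 and 2.10 TPM). Transfection, medium, selection, passage and time of harvest changed together between siNT and shNT, and their part in these differences was not tested.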

How the results depend on the processing

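The numbers of genes higher and lower in HS578T stayed within 1.5 times of the reported values under the alternatives run. When 1 library was left out they ranged from 5374 to 5992 and from 5849 to 6423, and the 2-fold numbers from 3763 to 4074 and from 4057 to 4519. The stricter filter, which tests fewer genes, left 2176 higher and 2516 lower genes at 2-fold, and a test against a 2-fold change (glmTreat) left 2725 lower genes. NRP1 stayed lower, from -0.86 to -0.72 when 1 library was left out, at -0.54 with GC-corrected offsets and at -0.98 on the log2(TPM + 0.1) scale.

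The interaction counts depended on the processing, and the cause was not tested. In the positive and negative direction they were 589 and 367 with DESeq2, 616 and 428 without a filter, 556 and 577 with all 18 NT controls and 450 and 272 with GC-corrected offsets. Leaving out 1 library gave 17 to 257 positive and 8 to 182 negative genes. The positive count moved by over 1.5 times without any 1 library except HS578T shNT replicate 3 and SUM159PT shNT replicate 2.

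Same-numbered libraries of the lines had deviations that correlated at 0.34, -0.04 and -0.02 in siNT and at -0.01, -0.09 and 0.29 in shNT, so the numbers were not taken to pair them. With the replicate block 5291 genes were higher and 6041 lower, 29 and 40 had an interaction, and 0 isoforms passed, where the smallest p that pairs allow is 0.031. Without 1 library, 0 to 3 isoforms passed.

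The medians of the gene lists also depended on the processing. Of 33 lists, 16 had a median that moved with GC-corrected offsets by at least its SD among replicate libraries. In siNT libraries alone 16 moved, in shNT libraries alone 15, with the stricter filter 9 and on the log2(TPM + 0.1) scale 26. With GC-corrected offsets 24 runs of lower genes were left of 56. Genes detected in 1 line only numbered 46 (HS578T) and 11 (SUM159PT) at 5 TPM, and 67 and 21 where the other line was at 0. With marker genes of at least 50 CPM, those of MDA-MB-231 reached at most 0.127% of their level in SUM159PT shNT libraries. Those of SUM159PT reached at most 0.103% in HS578T shNT and 0.0982% in HS578T siNT libraries. Of 188 genes checked, 166 neither lost nor gained a call nor changed sign in any alternative fit, and no called gene among them changed sign. The 188 left out some genes named above. Of these, STRIP2 was called lower over both modalities (-1.16) but was 0.22 and not called in siNT libraries alone. With GC-corrected offsets STRIP2 was not called either (-0.92). ACP2, also called lower (-1.44), was -0.15 and not called in shNT libraries alone. Genes of the 188 that were not called changed sign in the alternative fits as follows. ZEB2 (0.14), ERAP2 (0.25) and MET (0.070) did so with GC-corrected offsets, TAP2 (-0.0022) and EGFR (-0.024) without a filter, TAP2 (-0.0059) with the replicate block, EGFR (-0.0056) with all 18 NT controls, TAP2 (-0.11) and MET (0.24) in shNT and EGFR (-0.33) and FGFR1 (0.083) in siNT libraries alone. When 1 library was left out TAP2 ranged from -0.092 to 0.17 and EGFR from -0.11 to 0.11. Outside the 188, further genes that were not called changed sign between the fit of both modalities and shNT libraries alone. They were KRT18 (-0.79 and 0.75), GALNT15 (1.62 and -1.07), ATOH8 (-0.81 and 0.88) and CALHM5 (-1.26 and 0.41). FAM72B (0.41 and -0.85), CLDN4 (0.23 and -0.38) and CLDN7 (0.44 and -0.28) did so too. C10orf90 did so in siNT libraries alone (-0.85 and 0.90), and CLDN4 also with GC-corrected offsets (-0.03).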
